A study of Sedum plumbizincicola and Sedum alfredii with 13 samples.

Results

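Of 66584 transcript clusters measured, 20 met a rule for lower read counts in cadmium (Cd)-treated than in untreated roots. The rule had to be met in both Sedum plumbizincicola and Sedum alfredii. Members were chosen from the data. A read count normalised by a median-of-ratios size factor had to be at least 20 in each of the 3 untreated root libraries. The ratio of the Cd-treated to the untreated count, with 5 added to both, had to be at most 0.67 in each of 3 root pairs. The lower level in roots is therefore how the transcripts were picked, and its sizes are described below without a test.

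Sedum plumbizincicola is a Cd and zinc hyperaccumulator, and the Sedum alfredii plants were of a non-hyperaccumulating ecotype (NHE in the study's title). Both were grown with CdCl2 at 10 µM, or with 0 µM as the untreated control, and after 3 days their roots and shoots were collected. For each organ and dose, 2 libraries (A and B) stand for Sedum plumbizincicola, 8 in all, and a single one for Sedum alfredii, 4 in all. The labels state neither how many plants a library stands for nor the age of the plants sequenced in this way, and the expected counts per library totalled 1260160 to 4670429. The study calls A and B biological replicates, and Sedum alfredii has none. No member has a gene name, because the files give cluster numbers only (0 matched a name). Members are therefore called by their cluster IDs, in which the number after c is an assembly component and the number after g a cluster within it, and no role is given to them.

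Roots are the organ that meets Cd first. Cd enters root cells partly through carriers for iron, zinc, manganese and calcium, and it is bound there by thiol compounds and held in vacuoles. Hyperaccumulators are known for moving most of the metal onward to the shoot, while non-accumulating relatives keep more of it in the root. Which of these processes the members take part in cannot be read from the files.

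How the rule thinned the transcripts shows what was shared. Of 9959 transcripts at the level limit in untreated roots, 445 met the ratio limit in Sedum alfredii, 613 in pair A and 324 in pair B of Sedum plumbizincicola. Both Sedum plumbizincicola pairs met it for 68, and all 3 pairs for the 20 members, 0.201% of the 9959. A ratio below 1 in all 3 pairs, by any amount, was far more common, at 1930 of the 9959. With the same level limit on untreated roots, a ratio of at least the reciprocal in all 3 pairs was met by 29 transcripts. That limit leaves out transcripts raised from a low untreated level, so 20 and 29 are not like counts. Near the ratio limit the 2 members just inside had highest ratios of 0.666 and 0.669, and the 2 transcripts just outside had 0.6701 and 0.674. At the level limit the 2 lowest members stood at 20.4 and 20.8 in their lowest untreated root library. The nearest transcripts kept out by level stood at 15.9 and 16.4.

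**Figure D1:**
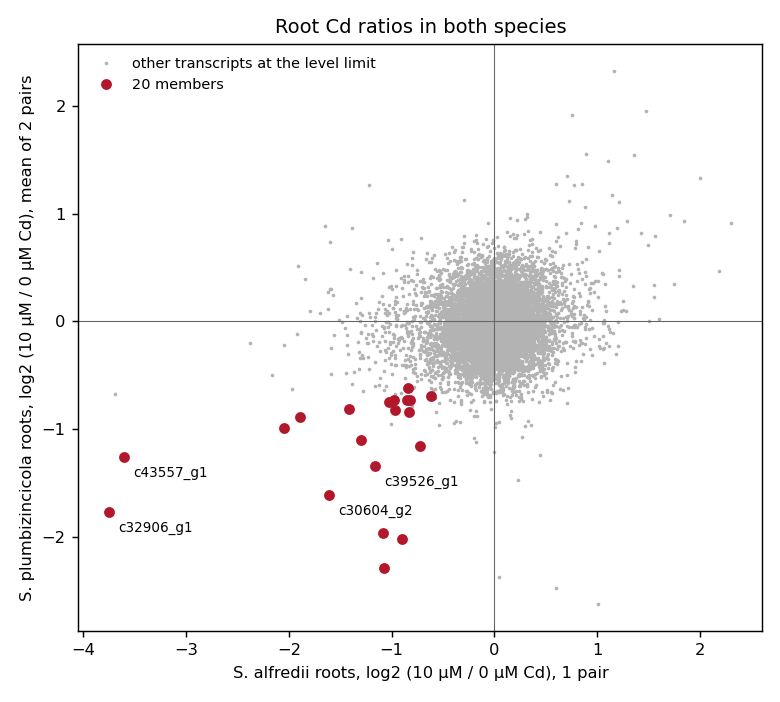
Each point is 1 of 9959 transcripts at the level limit, with the log2 ratio of Cd-treated to untreated roots in Sedum alfredii (1 pair, x axis) and the mean of both pairs in Sedum plumbizincicola (y axis). The 20 members (red) lie in the lower left by choice, and c32906_g1 and c43557_g1 stand far to the left.

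The members were lower by a median of 2.07-fold in Sedum alfredii roots (range 1.53 to 13.4). In Sedum plumbizincicola the medians were 1.86-fold in pair A (1.501 to 4.003) and 1.90-fold in pair B (1.49 to 5.98). Over the 9959 transcripts the median log2 ratios of the 3 pairs were -0.01, -0.03 and -0.03. In a bulk sample, fewer cells of a type and less RNA per cell cannot be told apart.

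The lowest value of the highest of its 3 root ratios belonged to c30604_g2, whose ratios in Sedum alfredii, pair A and pair B were 0.328, 0.328 and 0.325. It had 41.3 normalised reads in untreated Sedum alfredii roots and 10.2 with Cd. In Sedum plumbizincicola roots it went from 40.9 to 10.05 in pair A and from 20.8 to 3.39 in pair B. All 3 untreated root libraries stood above all 3 treated ones. These values rest on few reads, 3 in treated library B and 7 in treated library A. The 6 shoot libraries held at most 2 reads.

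Next came c39526_g1, with root ratios of 0.447 in Sedum alfredii, 0.389 in pair A and 0.399 in pair B. Its normalised root counts were 44.2 untreated and 17.0 with Cd in Sedum alfredii. In Sedum plumbizincicola they were 103.8 and 89.5 untreated and 37.3 and 32.7 with Cd, so replicates lay close together and doses apart. It was also 1 of only 2 members that were higher in shoots than in roots on average.

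The most abundant members were c32971_g2 and c32971_g1, 2 short clusters (416 and 390 bases in untreated roots) of 1 component. Per length, c32971_g2 reached 25725 and 22193 TPM (a level scaled by length and library size) in untreated Sedum plumbizincicola roots A and B, and 1796 TPM in untreated Sedum alfredii roots. On the same scale c32971_g1 stood at 12626, 10303 and 1017 TPM. Both were thus far above the members' median of 83.2 and 169 TPM in untreated roots A and B. In untreated Sedum alfredii roots, however, c34021_g1 stood above both, at 7457 TPM.

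In normalised reads c32971_g2 went from 18696 to 11660 in pair A, from 12573 to 7116 in pair B and from 1251 to 611 in Sedum alfredii. The doses did not overlap within Sedum plumbizincicola, but untreated B exceeded treated A by less than A and B differed from each other. For c32971_g1 the counts went from 7210 to 3867, from 4514 to 2679 and from 788 to 401. Clusters of 1 component can share near-identical sequence, so the split of reads between them is uncertain.

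In Sedum plumbizincicola roots these clusters took most of the members' share of all reads. In Sedum plumbizincicola roots without Cd their share was 1.22% in A (95% exact Clopper-Pearson interval 1.20% to 1.23%) and 0.921% in B (0.909% to 0.933%). Treated roots gave 0.858% in A (0.842% to 0.875%) and 0.533% in B (0.522% to 0.544%). In Sedum alfredii roots they took 0.105% (0.101% to 0.108%) without and 0.0527% (0.0504% to 0.0550%) with Cd. The other 18 members together took 0.363%, 0.319% and 0.757% of untreated roots A, B and Sedum alfredii, and 0.245%, 0.163% and 0.361% of treated ones. In Sedum alfredii roots most of this was c34021_g1, with 19617 of 25993 reads untreated and 11655 of 14291 with Cd. That treated shares lay below untreated ones follows from the choice of members, and all intervals cover counting error only.

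**Figure D2:**
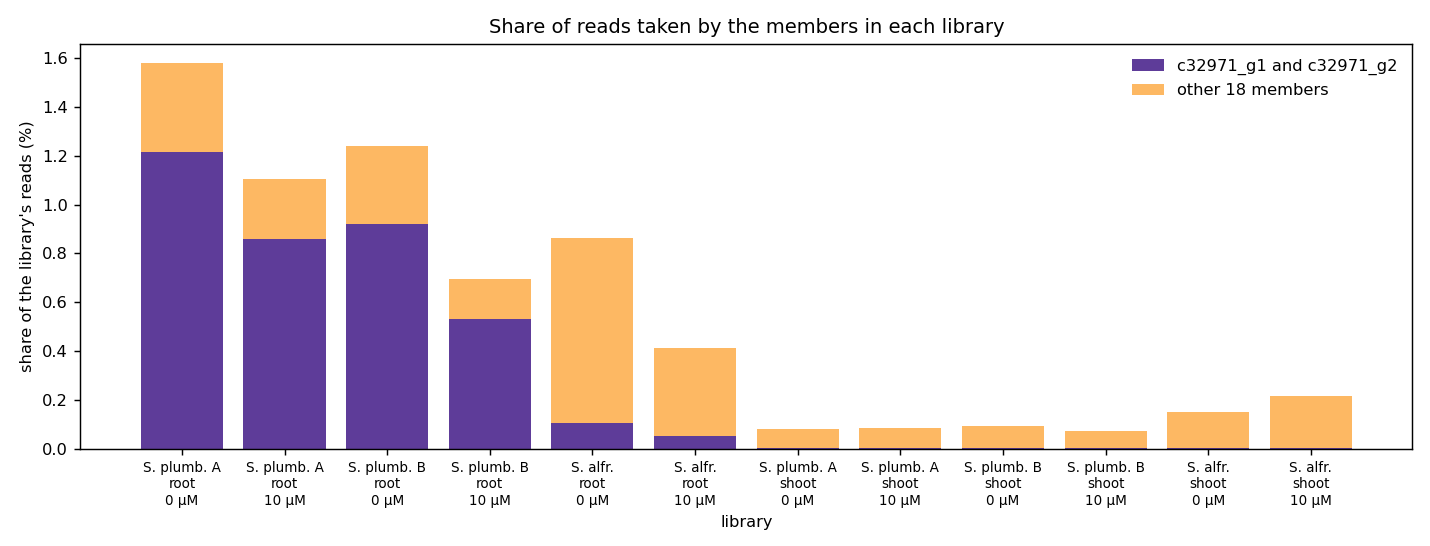
Bars give the share of each library's reads (%, y axis) taken by the members in the 12 libraries (x axis), split into c32971_g1 with c32971_g2 and the other 18 members. The c32971 pair makes up most of the bar in Sedum plumbizincicola roots (1.22% and 0.921% untreated) and a small part in Sedum alfredii roots (0.105% untreated). In Sedum alfredii roots most reads of the other members belong to c34021_g1.

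The widest gap between the species' ratios belonged to c32906_g1 and c43557_g1, which were singled out after their values were seen. In Sedum alfredii roots c32906_g1 went from 159.7 to 7.28 normalised reads (282 and 15 reads), 21.9-fold lower without the 5 added (counting interval 13.1 to 39.7) and 13.4-fold with it, and there was no replicate. In Sedum plumbizincicola it went from 20.4 to 7.18 in pair A, on only 13 and 5 reads. Pair B went from 72.5 to 9.03 (94 and 8 reads), so the untreated replicates themselves differed 3.55-fold.

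For c43557_g1 the Sedum alfredii counts were 808.7 untreated and 62.1 with Cd (1428 and 128 reads), 13.01-fold lower without the 5 added (counting interval 10.9 to 15.7) and 12.1-fold with it. Sedum plumbizincicola showed 42.4 and 149 untreated against 24.4 and 38.4 with Cd. The untreated replicates differed 3.51-fold, which is more than the doses differed within pair A. Neither transcript had a read in any shoot library. Whether the Cd response differs between the species was not tested, since Sedum alfredii had 1 library per dose.

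More generally the Sedum alfredii pair gave the lowest of the 3 root ratios for 11 of 20 members, against 32.8% of the 9959 transcripts. At a ratio of 0.5 or less, 11 of 20 members passed in Sedum alfredii (1.26% of the 9959), 7 in pair A (0.753%) and 9 in pair B (0.321%). The rule used this contrast, so these counts only describe the members. The remaining 9 members, not named, had untreated root counts of 21.5 to 1394 and treated counts of 7.90 to 780. Their root ratios spanned 0.167 to 0.633, and no shoot library held more than 4 reads of any of them.

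**Figure D3:**
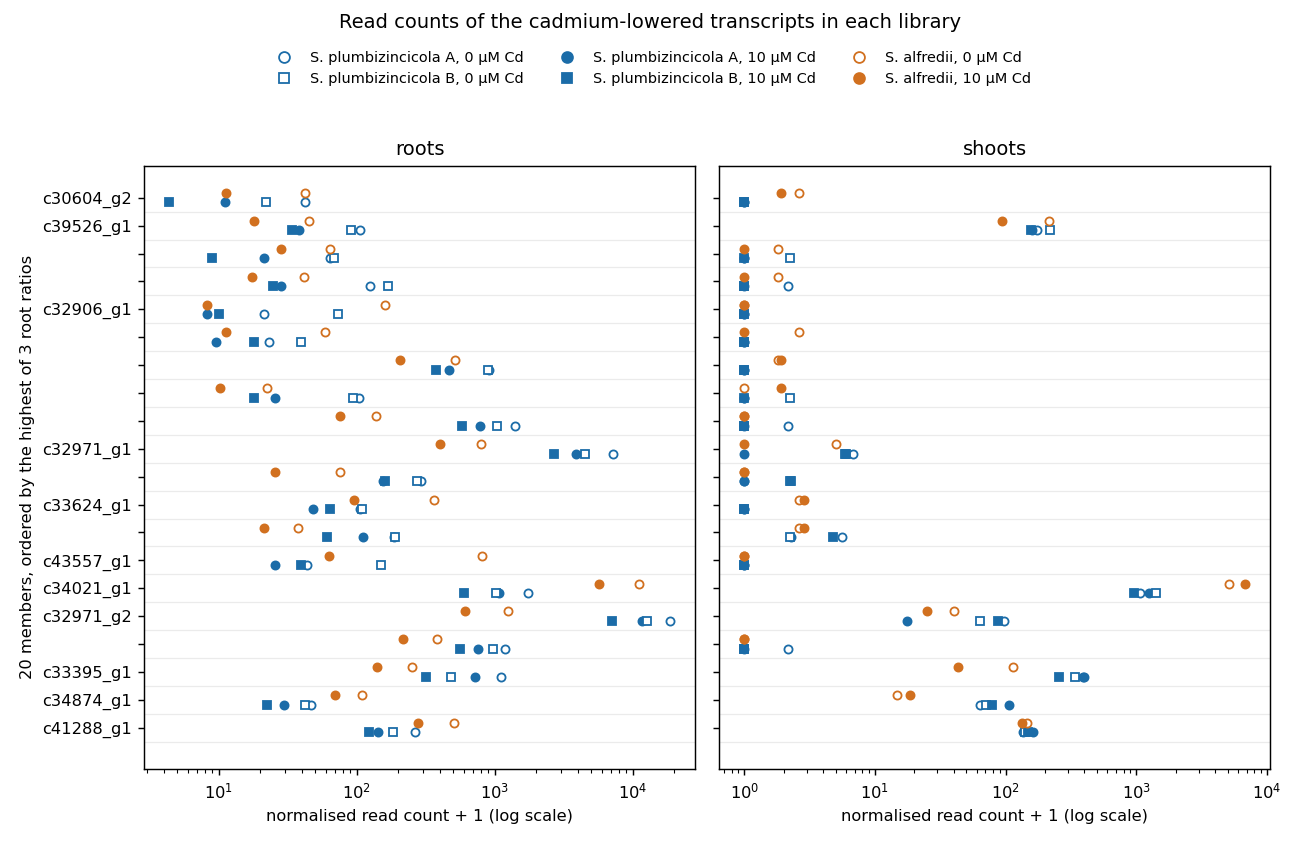
Normalised read count plus 1 (x axis, log scale) of each of the 20 members (rows, ordered by the highest of their 3 root ratios) in roots (left) and shoots (right). Open symbols are untreated and filled ones Cd-treated libraries, with Sedum plumbizincicola in blue (circle A, square B) and Sedum alfredii in orange, and the 14 members with at most 5 reads in every shoot library sit at the left edge of the shoot panel.

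Overlap of the doses across replicates in Sedum plumbizincicola roots is only described, because the rule asked for a low ratio in both pairs. Untreated and treated root libraries of this species did not overlap for 18 of 20 members (18.8% of the 9959 transcripts did so in this direction). The exceptions were c34021_g1 and c33395_g1. For c34021_g1 the untreated counts were 1731 and 1021 and the treated ones 1071 and 598. For c33395_g1 the untreated counts were 1115 and 483 and the treated ones 719 and 315. In both the A libraries stood above the B libraries at each dose, and the doses separate only within a pair.

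Over both species together the untreated and treated root libraries stood apart for 8 of 20 members (2.07% of the 9959). The rule used this contrast, so nothing is read from these counts. As background, edgeR's quasi-likelihood test called 2.08% of 19935 transcripts for Cd in Sedum plumbizincicola roots, with 1.98% of the 19935 lower, and no test of the members is drawn from it.

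The members were largely root transcripts, a property that the rule did not ask for. In 14 of 20, every shoot library held at most 5 reads, as against 2.02% of the 9959 transcripts at the same root level. The mean root count exceeded the mean shoot count at least 10-fold in 11 of 20 (2.85% of the 9959), with 5 added to both. The median root-to-shoot ratio was 11.8, and 1.12 over the 9959. The ratios use the root libraries that chose the members, and are given as a description.

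At the top stood c32971_g1 and c32971_g2, with root-to-shoot ratios of 391 and 146. In shoots c32971_g1 had 5.76, 4.95, 0 and 5.06 normalised reads in Sedum plumbizincicola (untreated A and B, treated A and B). In Sedum alfredii shoots it had 4.06 untreated and 0 with Cd. At 5 reads or fewer per library, a Cd change in shoots was not detectable at this depth. The lowest ratios were 0.341 for c39526_g1 and 0.916 for c34874_g1.

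Members were also short. Their median length in untreated roots was 695 bases, against 1487 for the 9959 transcripts, and 10 of 20 were under 700 bases (9.28% of the 9959). They ranged from 299 to 1666 bases. The number of assembled isoforms was like that of the rest, with a median of 4 in both sets. Read counts are not scaled by length, so a short transcript needs a higher level per length to pass the count limit.

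**Figure D4:**
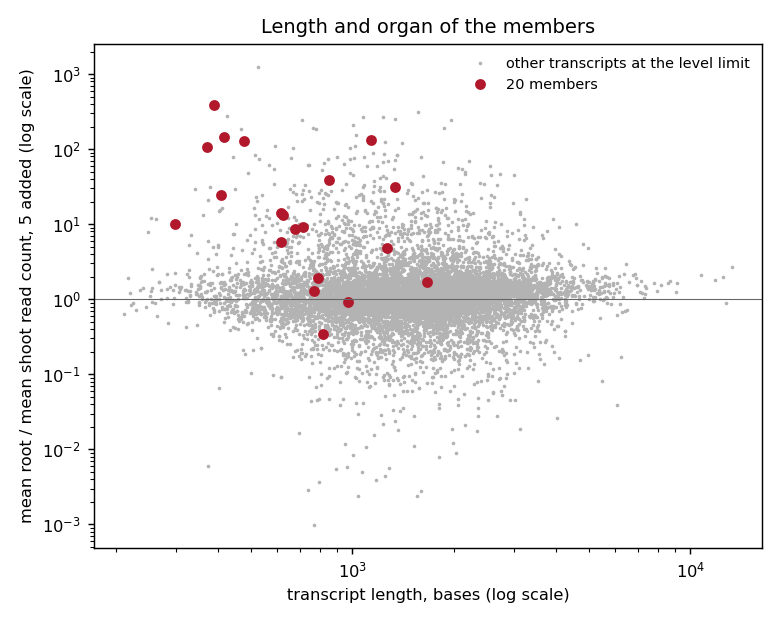
Transcript length in untreated roots (bases, log scale, x axis) against the mean root-to-shoot ratio of normalised reads with 5 added (log scale, y axis) for 9959 transcripts, with the 20 members in red. Most members lie above the bulk and to its left, with a median length of 695 bases against 1487 and a median ratio of 11.8 against 1.12.

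Isoform use was read from the deposited length, which weights each isoform by its abundance. Among the 17 members with several isoforms this length changed more than 1.1-fold with Cd for 3 in each root pair, where 10.5% (Sedum alfredii), 16.2% (pair A) and 13.8% (pair B) of all such transcripts did. The length of c43557_g1 was shorter with Cd in all 3 pairs, singled out after its values were seen. It went from 889 to 645 bases in Sedum alfredii, from 917 to 441 in pair A and from 750 to 553 in pair B, on 17 reads in treated A and 34 in treated B. Scaled by length and library size, its pair A ratio was 1.80 in TPM instead of 0.620 in counts, so its direction in that pair depended on the scale. All transcripts at the level limit were shifted in pair A too, with a median log2 ratio of 0.27 in TPM and -0.03 in counts.

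The 20 members came from 19 components, 12 of which held further clusters, 31 in all. Only 7 of these 31 reached the level limit in untreated roots. Clusters of 1 component can share reads, and the members were chosen in these same libraries, so the next counts only describe. The Cd ratios were below 1 in all 3 root pairs for 5 of 7 (19.4% of the 9959 transcripts), and 2 were above 1 in at least 1 pair. One of the latter was c32971_g3, named here because it shares the component of c32971_g1 and c32971_g2. In Sedum plumbizincicola roots it went from 2949 to 1859 in pair A and from 2690 to 1530 in pair B. In Sedum alfredii roots it had only 21.5 normalised reads untreated and 24.8 with Cd, where it was far less abundant and not lower with Cd. How reads divide between these clusters in each species was not tested.

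Levels in roots differed widely between the species. In untreated roots 10 of 20 members were at least 2-fold higher in Sedum plumbizincicola and 6 of 20 at least 2-fold higher in Sedum alfredii, against 12.6% and 14.0% of the 9959 transcripts. The extremes were 12.5-fold higher in Sedum plumbizincicola (c32971_g2) and 8.08-fold higher in Sedum alfredii (c43557_g1). With Cd, the difference was 15.2-fold for c32971_g2 and 1.85-fold for c43557_g1. These ratios have 5 added, set 2 libraries against 1, and use root libraries that chose the members. Both species were measured on 1 transcript set, so how well reads of each species align and how much is expressed cannot be told apart.

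Cd was tested in shoots, since no shoot library entered the rule's ratios. The test bears on few members, because the 14 with at most 5 reads in every shoot library could hardly be called at this depth. In simulated counts edgeR recovered 13% of planted 2-fold changes in Sedum plumbizincicola shoots and 45% over both species. A change of that size could thus be missed in the other members too. The question was whether transcripts lower with Cd in roots are also lower in shoots. With 1 Cd term over the 3 shoot pairs, edgeR called 0 of 20 members, where 0.129% of 24074 transcripts were called (0.112% higher and 0.0166% lower). An unadjusted p under 0.05 was reached by 1 of 20 members and by 1170 of the 24074 transcripts, a similar share. The members' smallest adjusted p was 0.558. In Sedum plumbizincicola shoots alone edgeR called 0 of 20 members and 0 of 19935 transcripts, with 0 members and 469 transcripts at an unadjusted p under 0.05. DESeq2 and limma on log2(TPM + 1) also called 0 members in both comparisons.

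Only 6 members had a mean of at least 20 normalised reads over the shoot libraries, and 4 of them had that level in every one. Among these 4, c39526_g1 was lower with Cd in all 3 shoot pairs. It went from 214 to 92.5 in Sedum alfredii, from 173 to 158.6 in pair A and from 218 to 154 in pair B. The log2 fold change was -0.64 (SE 0.19, unadjusted p = 0.00394, adjusted p = 0.558 by edgeR), so the difference did not pass across all transcripts. The Sedum alfredii pair differed most, and in Sedum plumbizincicola alone the value was -0.34 (SE 0.21). Over both species it was -0.33 without either Sedum alfredii shoot, and in Sedum plumbizincicola alone -0.15 without untreated shoot B and -0.50 without untreated shoot A. Both treated shoots of Sedum plumbizincicola lay below both untreated ones, with an unadjusted p of 0.12 by edgeR in this species. How many of all transcripts did so was not counted, so nothing is read from this order.

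In shoots c33395_g1 had 112 untreated and 42.6 treated normalised reads in Sedum alfredii. In Sedum plumbizincicola it had 396 and 337 untreated against 393 and 257 with Cd, which overlap. The log2 fold change over the 3 pairs was -0.54 (SE 0.43, adjusted p = 1 by edgeR). It was -0.18 without either Sedum alfredii shoot and -0.83 without treated shoot A.

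Neither of the other two passed. The shoot counts of c41288_g1 were 144 and 133 in Sedum alfredii (untreated and treated), 136 and 160 in pair A and 139.9 and 148 in pair B. Its log2 fold change was 0.04 (SE 0.18, adjusted p = 1 by edgeR). Those of c34021_g1 were 5128 and 6810 in Sedum alfredii, 1071 and 1244 in pair A and 1408 and 964 in pair B. Pair B went the other way, and the log2 fold change was 0.0034 (SE 0.27, adjusted p = 1 by edgeR).

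**Figure D5:**
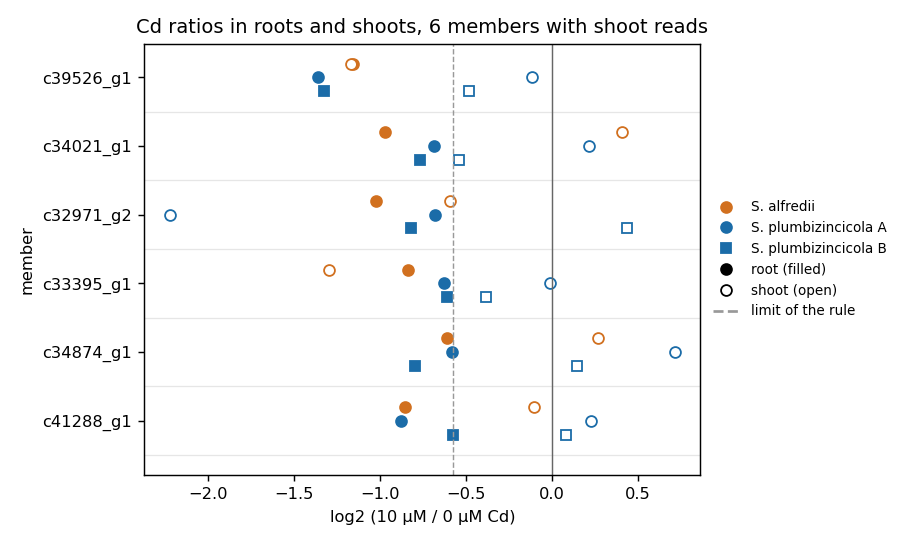
Log2 ratio of Cd-treated to untreated libraries (x axis) for the 6 members with a mean of at least 20 normalised shoot reads (rows), in roots (filled) and shoots (open), with Sedum alfredii in orange and Sedum plumbizincicola in blue (circle A, square B). All root points lie at or left of the dashed limit of the rule (ratio 0.67), while shoot points lie on both sides of 0 for c34021_g1, c32971_g2 and c41288_g1 and left of it in all 3 pairs for c39526_g1 and c33395_g1.

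The remaining members with a mean of at least 20 normalised shoot reads behaved differently from each other. In Sedum plumbizincicola shoots c32971_g2 went from 95.6 to 16.5 in pair A and from 63.1 to 87.2 in pair B. In Sedum alfredii shoots it went from 39.0 to 24.1. With replicates going opposite ways, its log2 fold change of -0.66 (SE 0.46, adjusted p = 1 by edgeR) did not pass. The counts of c34874_g1 were higher with Cd in each shoot pair, from 13.8 to 17.6, from 62.2 to 105 and from 69.3 to 77.1. Its log2 fold change was 0.43 (SE 0.22, adjusted p = 1 by edgeR). The Sedum alfredii shoot pair held only 17 and 19 reads of c34874_g1.

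The species were then compared in shoots, over both doses. Of the 20 members edgeR called 2 higher and 2 lower in Sedum plumbizincicola, where 65.8% of 24074 transcripts were called (31.9% higher and 33.9% lower). On the TPM scale limma called 9559 transcripts higher and 4819 lower, where edgeR called 7677 and 8170. Of the 6 members with a mean of at least 20 normalised shoot reads 3 were called. With at least 10 counts required in every library, edgeR called 3 of 6 members and 6830 of 10146 transcripts.

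The higher ones were c34874_g1 and c33395_g1. For c34874_g1 the 4 Sedum plumbizincicola shoots had 62.2, 69.3, 105 and 77.1 normalised reads and the 2 Sedum alfredii shoots 13.8 and 17.6 (log2 fold change 2.29, SE 0.26, adjusted p = 5.46e-07 by edgeR). In roots the order was the reverse, with 45.6, 40.9, 28.7 and 21.4 in Sedum plumbizincicola against 108 and 68.9 in Sedum alfredii. This transcript was thus higher in roots than shoots in Sedum alfredii and higher in shoots than roots in Sedum plumbizincicola, with no overlap in either. How many of all transcripts did so was not counted, and the root libraries chose the members, so nothing is read from this reversal. For c33395_g1 the Sedum plumbizincicola shoots, 257 to 396, lay above both Sedum alfredii shoots, 42.6 and 112 (log2 fold change 2.21, SE 0.51, adjusted p = 0.00352 by edgeR). Without the treated Sedum alfredii shoot library it did not pass (1.79, adjusted p = 0.0663).

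The lower ones were c34021_g1 and c33624_g1. Shoots of Sedum alfredii had 5128 and 6810 normalised reads of c34021_g1, and those of Sedum plumbizincicola 964 to 1408 (log2 fold change -2.37, SE 0.27, adjusted p = 5.03e-07 by edgeR). The same order held in roots, at 11109 and 5658 against 598 to 1731. For c33624_g1 the call rests on 2 reads in each Sedum alfredii shoot and 0 in the 4 Sedum plumbizincicola shoots (adjusted p = 0.0274 by edgeR), and no fold is given. It did not pass when either Sedum alfredii shoot (adjusted p = 0.121 and 0.132) or untreated Sedum plumbizincicola shoot A (0.0519) was left out. In roots, where it had reads in every library, its counts went from 364 to 94.7 in Sedum alfredii and from 104 and 108 to 47.4 and 63.2 in Sedum plumbizincicola.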

How the data were processed

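Illumina RNA-seq libraries of roots and shoots were grouped from the labels, and a pooled Roche library was not analysed here. Per the submitters' processing notes the authors used FastQC, Bowtie and RSEM, with no versions; assembly and trimming are not given in the sources used here. The authors deposited, per the file headers, for each cluster an expected count, TPM, FPKM and a length averaged over isoforms by abundance; deposited FPKM values were not used. Expected counts were rounded for the tests. Size factors came from 10144 transcripts with at least 10 counts in all 12 libraries; 3 counts, the limit that 0 reads allow, equal 1.46 to 4.72 normalised reads. Differences were tested with edgeR (version 4.0.16, R 4.3.3; TMM, filterByExpr, robust quasi-likelihood F-test, two-sided, Benjamini-Hochberg over all transcripts, threshold 0.05): 1 fit of 8 Sedum plumbizincicola libraries by group, and 1 of all 12 with species and organ, and Cd within organ. DESeq2 1.42.0 and limma 3.58.1 were alternatives, with a pseudocount of 1 on TPM. Scripts were tested on simulated data. The members and lists were chosen with earlier results of these data known. Named transcripts were those with the lowest highest root ratio, the highest TPM, and the extremes of the organ, Cd and species contrasts in shoots; exceptions are stated. No replicates were near-duplicates: the chi-square of A against B was 12.1 times its degrees of freedom in untreated roots. It was 3.18 times in treated roots, 4.26 in untreated shoots and 2.77 in treated shoots. By this measure A and B differed most in untreated roots, from which the root ratios of Sedum plumbizincicola start.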

Additional observations from a re-analysis of the deposited data

Results flagged for a closer look

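The transcript c34874_g1 was higher with Cd in every shoot pair while lower in every root pair. Its shoot ratios, with 5 added, were 1.201 in Sedum alfredii, 1.642 in pair A and 1.105 in pair B of Sedum plumbizincicola, and its root ratios were 0.653, 0.666 and 0.576. In the same order, shoots held 17 and 19, 54 and 83, and 56 and 61 reads (untreated and treated). Roots held 191 and 142, 29 and 20, and 53 and 19 reads, so several of these ratios rest on few reads. The difference between organs was not tested, because the root direction was fixed by the choice of members, and the shoot change did not pass its own test.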

How the results depend on the processing

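The number of members depended on the rule. It was 19 with TMM factors and 25 with 1 added, but 9 with ratios of TPM, 5 with a ratio of at most 0.5, 11 with a level of at least 50 and 12 with A and B exchanged between doses, 10 of them among the 20. With 1 root pair left out, a setting added after seeing the data, it was 47 to 427: 47 without pair A, 75 without pair B and 427 without Sedum alfredii. On the TPM scale the median log2 ratio of all transcripts at the level limit was 0.27 in pair A, against -0.03 in counts, and 19 of 20 members had a ratio below that median in all 3 pairs. The median species ratio in untreated roots was 1.91 in counts and 1.65 in TPM.

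No member was called for Cd in shoots under any alternative run. Over all transcripts the count in Sedum plumbizincicola shoots was 1 with DESeq2, 22 without a filter, 5 with a replicate block and 0 to 5 without 1 library (5 without untreated shoot B). Over both species 31 were called, 4 with DESeq2, 111 without a filter, 0 with at least 10 counts in every library or with limma, 49 with a replicate block and 1 to 72 without 1 library (1 without either Sedum alfredii shoot, 72 without untreated shoot A and 52 without untreated shoot B). The letters are not stated to pair plants; A minus B differences of both doses correlated across transcripts (Pearson 0.433 in roots, 0.312 in shoots, a description), and in the 3 shoot comparisons, where it was run, the replicate block changed no call of a member. The species call in shoots covered 15847 transcripts, 6830 with at least 10 counts in every library and 13796 to 15364 without 1 library. On limma's TPM scale the split was 9559 higher and 4819 lower, against 7677 and 8170. Members called were 8 with limma and 2 to 5 without 1 library, 2 of them without the treated Sedum alfredii shoot.

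The Cd changes of c34021_g1 and c33395_g1 in shoots, which were not called, turned sign under some settings. For c34021_g1 over both species these were -0.0044 without a filter, -0.029 with a replicate block and -0.17 to 0.21 without 1 library (-0.012 without treated shoot A, -0.021 without untreated shoot A, and -0.17 without either Sedum alfredii shoot). In Sedum plumbizincicola alone, leaving out 1 library gave -0.38 to 0.033 for c34021_g1 (0.033 without untreated shoot B) and -0.53 to 0.075 for c33395_g1 (0.075 without treated shoot B). The cause was not tested.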
